A study of Mus musculus with 30 samples.

Results

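Lung epithelial identity transcription factors are the DNA-binding proteins that set and hold the epithelial program of the airways and alveoli. The 10 examined here were found by their symbol among the 55487 genes of the count files: Nkx2-1, Foxa1, Foxa2, Sox9, Cebpa, Klf5, Elf3, Grhl2, Gata6 and Ehf. Each symbol stood on 1 gene, and all 10 passed the filter on low counts in every fit. The cells came from organoids made of Epcam+ lung cells of wild-type mice and of CCL206, so the fibroblasts of all cultures were of 1 established line. CCL206 cells are mouse lung fibroblasts, and mitomycin C had been used to stop their division.

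The cultures of 4 mice were exposed for 72 hours to vehicle, EC, IPFc or TGF-β at 2 ng/ml, and were then re-sorted into Epcam+ cells (epithelial libraries) and CCL206 cells (fibroblast libraries). EC is a cocktail of the soluble factors of an exacerbation of chronic obstructive pulmonary disease and held IL-6, IL-1β, TNFα and a chemokine, which the labels give as IL-8 and the study's methods, for mouse cells, as its mouse counterpart KC. IPFc, a cocktail of factors raised in idiopathic pulmonary fibrosis, held TGF-β beside IL-1β, TNFα, IL-4, IL-13, IL-33, TSLP, IL-8 and CCL2. The 30 libraries form 8 groups of 4, except for 3 fibroblast vehicle libraries and 3 epithelial TGF-β libraries. For these groups, mouse 2 (fibroblast vehicle) and mouse 1 (epithelial TGF-β) were not analysed here.

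Lung endoderm becomes lung under Nkx2-1, a homeobox factor that later drives surfactant genes. It works with the forkhead factors Foxa1 and Foxa2, which open closed chromatin, with the zinc finger factor Gata6, and with Cebpa, a leucine zipper factor of alveolar type 2 (AT2) cells, the surfactant-making cells. Klf5, a zinc finger factor, Elf3 and Ehf, of the Ets family, and Grhl2, of the grainyhead family, maintain junction and barrier genes in many epithelia, and Grhl2 is opposed by the repressor Zeb1. Sox9, an HMG box factor, marks the dividing distal tips of the developing lung, and it is also the main driver of cartilage and is made by mesenchymal cells.

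The libraries held between 5113828 and 20317181 counted reads, with a median of 13843287, and the shallowest was the fibroblast EC library of mouse 1. Values are given in CPM, the reads of a gene scaled to library size and composition. The re-sort was not complete, and the estimated share of RNA of the opposite fraction differed between treatments. This share was estimated from 26 general epithelial or 22 fibroblast markers, none of them a member. Epithelial libraries held an estimated 5.98% ± 2.45 (SD, n = 4) of fibroblast RNA with vehicle, 11.5% ± 4.78 (SD, n = 4) with EC, 11.1% ± 5.43 (SD, n = 4) with IPFc and 27.7% ± 2.83 (SD, n = 3) with TGF-β. Fibroblast libraries held an estimated 20.9% ± 8.56 (SD, n = 3) of epithelial RNA with vehicle, 43.1% ± 12.7 (SD, n = 4) with EC, 18.8% ± 9.03 (SD, n = 4) with IPFc and 2.03% ± 1.12 (SD, n = 4) with TGF-β. The share in epithelial libraries was higher than with vehicle in 4 of 4 mice with EC, in 4 of 4 with IPFc and in 3 of 3 with TGF-β (exact permutation tests, two-sided, p = 0.125, 0.125 and 0.25, each the smallest p that its number of pairs allows).

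The defining markers of the fractions were read beside these shares. Epcam, the sorted surface protein, stood at 217 to 234 CPM in epithelial vehicle libraries and higher, at 353 to 388 CPM, in epithelial TGF-β libraries. The junction protein gene Cdh1 stood at 717 to 869 and 802 to 855 CPM. The 26 general epithelial markers, which include both, went the other way as a sum. Together they reached 11865 to 14089 CPM with vehicle and 7357 to 8011 CPM with TGF-β. In fibroblast libraries Epcam stood at 25.3 to 45.3 CPM with vehicle, 68.1 to 112 CPM with EC, 20.8 to 55.1 CPM with IPFc and 3.04 to 9.85 CPM with TGF-β. Col1a1, which encodes a collagen I chain, stood in epithelial libraries at 56.7 to 131 CPM with vehicle and at 1025 to 1086 CPM with TGF-β. The 22 fibroblast markers together reached 794 to 1319 CPM in epithelial vehicle libraries and 6692 to 7065 CPM in epithelial TGF-β libraries. Thy1 was at 0 in all 3 of the latter, but equally in every fibroblast vehicle, EC and TGF-β library, so its absence does not tell the fractions apart. In epithelial vehicle libraries the 1 marker listed at 0 was Postn. In bulk samples, fewer cells of a type and less RNA per cell cannot be told apart. Each member was therefore also set against the level that the share of the other fraction alone would give.

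Nkx2-1 (ENSMUSG00000001496) lies on chromosome 12 at 56531935 to 56536908, and Foxa1 (ENSMUSG00000035451) on the same chromosome at 57540628 to 57548029. Foxa2 (ENSMUSG00000037025) lies on chromosome 2 at 148042877 to 148046969, and Ehf (ENSMUSG00000012350) on the same chromosome at 103263431 to 103303275. Sox9 (ENSMUSG00000000567) lies on chromosome 11 at 112782210 to 112787757, and Cebpa (ENSMUSG00000034957) on chromosome 7 at 35119293 to 35121928. Klf5 (ENSMUSG00000005148) lies on chromosome 14 at 99298691 to 99313412, Elf3 (ENSMUSG00000003051) on chromosome 1 at 135253574 to 135258472 and Grhl2 (ENSMUSG00000022286) on chromosome 15 at 37232821 to 37363569. These positions are those of RefSeq on GRCm38.p6, and Gata6 is ENSMUSG00000005836. Genes on the opposite strand overlapped the exons of 6 members over 0.871% to 13.0% of their length, most for Sox9 (BC006965, 13.0%) and Gata6 (Gata6os, 12.5%), and reads of such partners could not be told apart where counting ignored strand.

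The 250 bases before the start of Nkx2-1, Cebpa and Elf3 are shown because these members fell together in epithelial TGF-β libraries, and the last also rose with EC (below). They are RefSeq sequences of GRCm38.p6 on the strand of the gene, 5′ to 3′. Capitals mark any match, on either strand, to the motif letters of the members' own families or of the Smad proteins that TGF-β receptors activate.
Nkx2-1, chr12:56536909-56537158, minus strand: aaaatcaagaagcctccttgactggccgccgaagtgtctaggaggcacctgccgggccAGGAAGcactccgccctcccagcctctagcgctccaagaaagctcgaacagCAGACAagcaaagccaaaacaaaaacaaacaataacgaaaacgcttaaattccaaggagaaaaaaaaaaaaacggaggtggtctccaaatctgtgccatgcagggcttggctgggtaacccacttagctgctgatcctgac
Cebpa, chr7:35119043-35119292, plus strand: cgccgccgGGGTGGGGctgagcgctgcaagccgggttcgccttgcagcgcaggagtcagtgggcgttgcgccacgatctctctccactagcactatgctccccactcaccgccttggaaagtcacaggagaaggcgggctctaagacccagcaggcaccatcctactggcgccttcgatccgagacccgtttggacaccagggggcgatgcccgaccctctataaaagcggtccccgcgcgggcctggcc
Elf3, chr1:135258473-135258722, minus strand: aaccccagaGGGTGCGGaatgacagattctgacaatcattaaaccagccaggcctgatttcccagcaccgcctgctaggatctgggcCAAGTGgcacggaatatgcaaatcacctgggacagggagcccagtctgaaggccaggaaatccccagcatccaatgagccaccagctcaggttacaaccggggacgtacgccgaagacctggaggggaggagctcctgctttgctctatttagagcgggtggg

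In the Nkx2-1 window the capitals are 1 Ets match (AGGAAG) and 1 Smad match (CAGACA). In the Cebpa window they are 1 Klf match (CCNCNCCC, read on the opposite strand), and in the Elf3 window 1 Nkx2-1 core (CAAGTG) and 1 Klf match. Such letters are common: among 27025 promoter windows of the same length, 29.2% held the Ets motif, 17.1% the Smad motif, 45.6% the Klf motif and 11.6% the Nkx2-1 core. Of the 5 members with a window (Foxa1 and the first listed start of Foxa2 besides those shown), 3 held the Klf motif, 2 the Sox motif (ACAANG, 36.6% of windows) and 1 the forkhead motif (TGTTTNC, 17.9%). No window held the C/EBP motif (TTGCNNAA, 9.55%), the Gata motif (NGATAA, 23.0%) or the grainyhead motif (AACNNGTT, 3.63%). These matches describe the letters only. Sox9, Klf5, Grhl2, Gata6 and Ehf were not examined in this way.

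With vehicle, the epithelial level of the members spanned a wide range. Per kilobase of exon, the highest were Cebpa with 69.1 ± 6.14 CPM per kb (SD, n = 4) and Nkx2-1 with 67.9 ± 10.02 CPM per kb (SD, n = 4), whose libraries overlapped. Klf5 followed with 44.0 ± 5.27 CPM per kb (SD, n = 4), below every library of Nkx2-1. Elf3 (34.2 ± 2.78) lay below Klf5 without overlap, and Foxa1 (33.6 ± 5.14) and Foxa2 (28.1 ± 4.37 CPM per kb, SD, n = 4) each overlapped with the member before. Ehf with 18.1 ± 4.42 CPM per kb lay clear of these, Grhl2 (7.31 ± 0.182) and Gata6 (6.89 ± 1.26 CPM per kb) overlapped with each other, and Sox9 was lowest with 0.959 ± 0.549 CPM per kb (SD, n = 4), apart from all others.

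**Figure D1:**
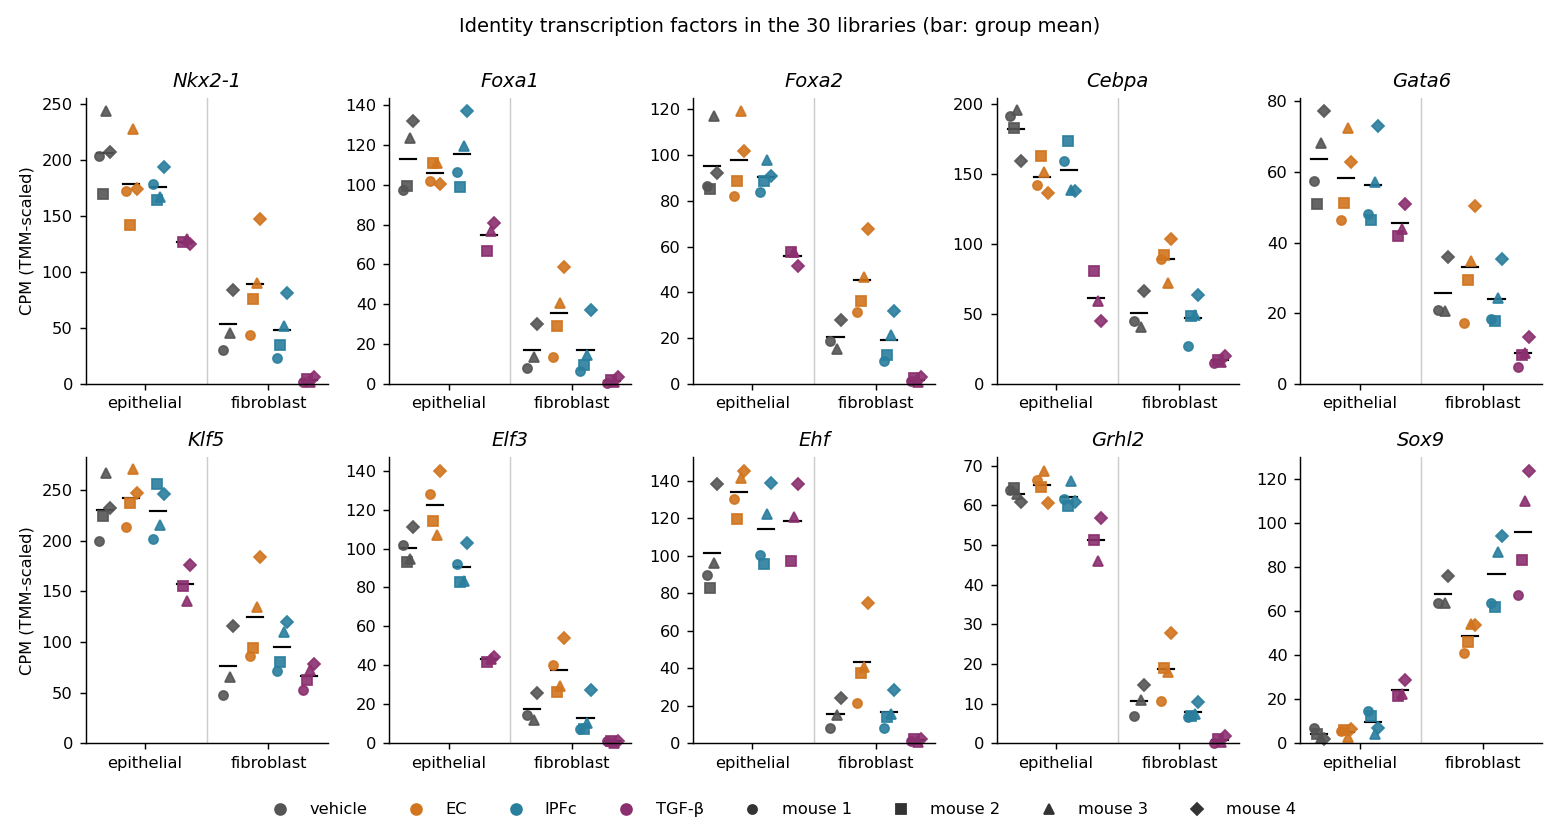
Level of each of the 10 members in CPM (linear axis from 0) in every library, epithelial and fibroblast groups side by side, with colours for the treatments, point shapes for the mice and a bar at each group mean. In epithelial libraries Cebpa stands at 159 to 195 CPM with vehicle and at 44.6 to 80.3 CPM with TGF-β, while Sox9 is the 1 member whose fibroblast groups lie above its epithelial groups.

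EC addressed the response of the epithelium to exacerbation factors, and 2 of 10 members rose in epithelial libraries, both of the Ets family, where 4.41% of all genes tested were called. Ehf stood at 89.4, 82.9, 96.3 and 138 CPM in the vehicle libraries of mice 1 to 4 and at 130, 119, 141 and 145 CPM in the EC libraries. It was higher with EC in 4 of 4 mice, although the vehicle library of mouse 4 lay within the EC range (log2 fold change 0.43, SE 0.09, edgeR adjusted p = 5.5e-03). Elf3 stood at 102, 93.3, 94.6 and 111 CPM with vehicle and at 128, 114, 107 and 140 CPM with EC. It too was higher in 4 of 4 mice with overlapping groups (log2 fold change 0.28, SE 0.08, edgeR adjusted p = 0.044).

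Both calls depended on which mice were in the fit. For Ehf the adjusted p was 0.099, 0.079 and 0.077 without mouse 1, 2 or 3 and 1.8e-04 without mouse 4, and for Elf3 it was 0.30, 0.23, 0.12 and 0.064 without mouse 1, 2, 3 or 4 (edgeR). Without the mouse as a block it was 0.26 for Ehf and 0.19 for Elf3. With the fibroblast RNA subtracted, both were called, at log2 fold changes of 0.47 for Ehf and 0.33 for Elf3 (edgeR adjusted p = 0.016 and 0.041), where 1.9% of all genes were called.

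The other 8 members did not pass the test with EC. Cebpa, at 191, 183, 195 and 159 CPM with vehicle and 142, 162, 151 and 136 CPM with EC, was lower in 4 of 4 mice (log2 fold change −0.30, SE 0.10, edgeR adjusted p = 0.10). Nkx2-1 was also lower in 4 of 4 mice, with 206 ± 30.4 CPM (SD, n = 4) with vehicle and 179 ± 36.0 CPM (SD, n = 4) with EC (log2 fold change −0.20, SE 0.10, edgeR adjusted p = 0.39). Sox9 had 4.01 ± 2.29 CPM (SD, n = 4) with vehicle and 5.25 ± 1.66 CPM (SD, n = 4) with EC (log2 fold change 0.42, SE 0.27, edgeR adjusted p = 0.54). For Foxa1, Foxa2, Klf5, Grhl2 and Gata6 the log2 fold changes lay between −0.12 (Gata6) and 0.07 (Klf5), and the widest of their 95% intervals ran from −0.34 to 0.09 (Gata6). The median log2 fold change over the 10 members was 0.05, against 0.0031 over all genes tested.

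IPFc changed 1 of 10 members in epithelial libraries, where 4.1% of all genes were called. Sox9 stood at 7.13, 4.30, 2.56 and 2.04 CPM in the vehicle libraries of mice 1 to 4 and at 14.5, 12.6, 4.31 and 7.04 CPM in the IPFc libraries. It rose in 4 of 4 mice, with groups that overlapped (log2 fold change 1.23, SE 0.26, edgeR adjusted p = 6.7e-03), and was called without any 1 mouse (adjusted p of 0.012 to 0.047) but not without the mouse as a block (adjusted p = 0.12). The level that fibroblast RNA alone would give in these IPFc libraries was 3.76 to 10.5 CPM, and measured over expected was 1.45, 1.18, 1.08 and 0.768 in mice 1 to 4. After subtraction of that RNA the log2 fold change was 2.66 with an SE of 0.85, and the call was lost (edgeR adjusted p = 0.30).

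The other 9 members did not pass the test with IPFc. Cebpa had a log2 fold change of −0.28 (SE 0.10, edgeR adjusted p = 0.16), Nkx2-1 of −0.23 (adjusted p = 0.34), Elf3 of −0.16 (adjusted p = 0.37) and Ehf of 0.17 (adjusted p = 0.45). Foxa1 stood at 115 ± 16.6 CPM (SD, n = 4) with IPFc against 113 ± 17.3 CPM (SD, n = 4) with vehicle, and Klf5 at 229.9 ± 25.5 CPM against 231 ± 27.6 CPM (SD, n = 4). The median log2 fold change over the 10 members was −0.06.

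TGF-β, the main fibrotic growth factor, lowered 7 of 10 members in epithelial libraries and raised 1. Of all genes tested, 41.1% were called and 20.1% were called lower, and the median log2 fold change was −0.58 over the members and 0.03 over all genes. The groups did not overlap for 9 members, all but Ehf, as they did not for 45.1% of all genes tested, and the 8 calls held without any 1 mouse.

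Cebpa fell most. It stood at 191, 183, 195 and 159 CPM in the vehicle libraries of mice 1 to 4 and at 80.3, 58.7 and 44.6 CPM in the TGF-β libraries of mice 2 to 4. Every TGF-β library lay far below every vehicle library, a 2.91-fold lower level (log2 fold change −1.54, SE 0.12, edgeR adjusted p = 1.3e-09). Elf3 stood at 93.3 to 111 CPM with vehicle and at 41.7, 43.3 and 44.3 CPM with TGF-β, a tight group 2.22-fold lower (log2 fold change −1.15, SE 0.09, edgeR adjusted p = 2.9e-09).

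The endoderm factors fell less. Foxa2 stood at 86.6, 85.2, 117 and 92.4 CPM with vehicle and at 57.8, 57.6 and 51.7 CPM with TGF-β (log2 fold change −0.77, SE 0.10, edgeR adjusted p = 4.0e-06). Its relative Foxa1 stood at 97.5, 99.4, 124 and 132 CPM with vehicle and at 66.7, 76.8 and 80.9 CPM with TGF-β (log2 fold change −0.59, SE 0.10, adjusted p = 1.0e-04). Nkx2-1 stood at 204, 169, 244 and 207 CPM with vehicle and at 127, 129 and 125 CPM with TGF-β (log2 fold change −0.64, SE 0.12, adjusted p = 1.6e-04). In all 3 genes every TGF-β library lay below the lowest vehicle library. Gata6 fell from 63.5 ± 11.7 CPM (SD, n = 4) to 45.6 ± 4.78 CPM (SD, n = 3; log2 fold change −0.49, SE 0.12, edgeR adjusted p = 1.9e-03).

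Among the barrier factors besides Elf3, 1 of 3 fell. Klf5 stood at 200, 224, 267 and 232 CPM with vehicle and at 156, 141 and 176 CPM with TGF-β (log2 fold change −0.57, SE 0.11, edgeR adjusted p = 1.8e-04). Grhl2 stood at 60.8 to 64.3 CPM with vehicle and at 51.2, 46.1 and 56.8 CPM with TGF-β, groups that did not overlap in a difference that missed the threshold (log2 fold change −0.25, SE 0.10, edgeR adjusted p = 0.058, 95% interval −0.46 to −0.04). Ehf stood at 82.9 to 138 CPM with vehicle and at 97.1, 121 and 138 CPM with TGF-β, within the same range (log2 fold change 0.24, SE 0.10, edgeR adjusted p = 0.060). The Ets factors Elf3 and Ehf, both called higher with EC, thus had values of opposite sign with TGF-β.

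**Figure D2:**
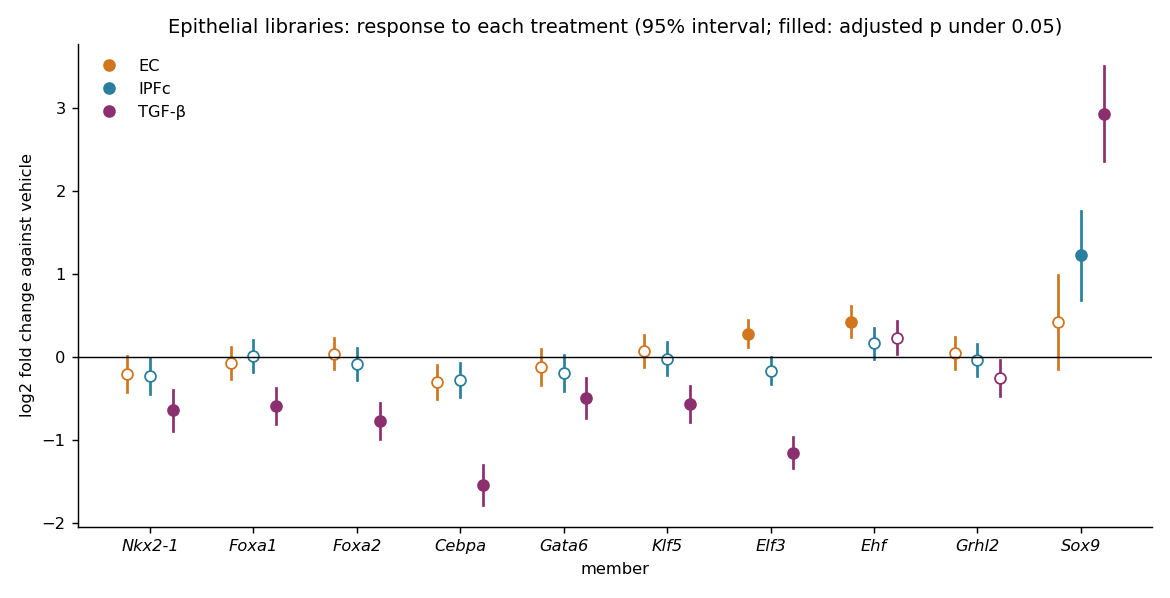
Log2 fold change against vehicle (vertical axis) of each member (horizontal axis) in epithelial libraries, with colours for EC, IPFc and TGF-β, 95% intervals and filled points where the adjusted p is under 0.05. With TGF-β 7 members have filled points below 0, from −0.49 for Gata6 to −1.54 for Cebpa, and Sox9 lies at 2.94.

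The epithelial TGF-β libraries also had the highest estimated share of fibroblast RNA. The comparison was repeated with the estimated amount of this RNA subtracted, which left 4 of 10 members called, and 26.6% of all genes. The share rests on fibroblast markers such as Col1a1, so carried-over fibroblast RNA and expression of these markers by Epcam+ cells cannot be told apart. Cebpa was lower by a log2 fold change of −1.27 (SE 0.13, edgeR adjusted p = 9.8e-06), Elf3 of −0.77 (SE 0.08, adjusted p = 2.0e-05) and Foxa2 of −0.39 (SE 0.11, adjusted p = 0.014). Ehf was then called higher (log2 fold change 0.63, SE 0.10, edgeR adjusted p = 4.1e-04). The call was lost for Nkx2-1 (−0.25, adjusted p = 0.18), Foxa1 (−0.21, adjusted p = 0.21), Klf5 (−0.34, adjusted p = 0.054) and Gata6 (−0.16, adjusted p = 0.35), each with a log2 fold change of the same sign as before.

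**Figure D3:**
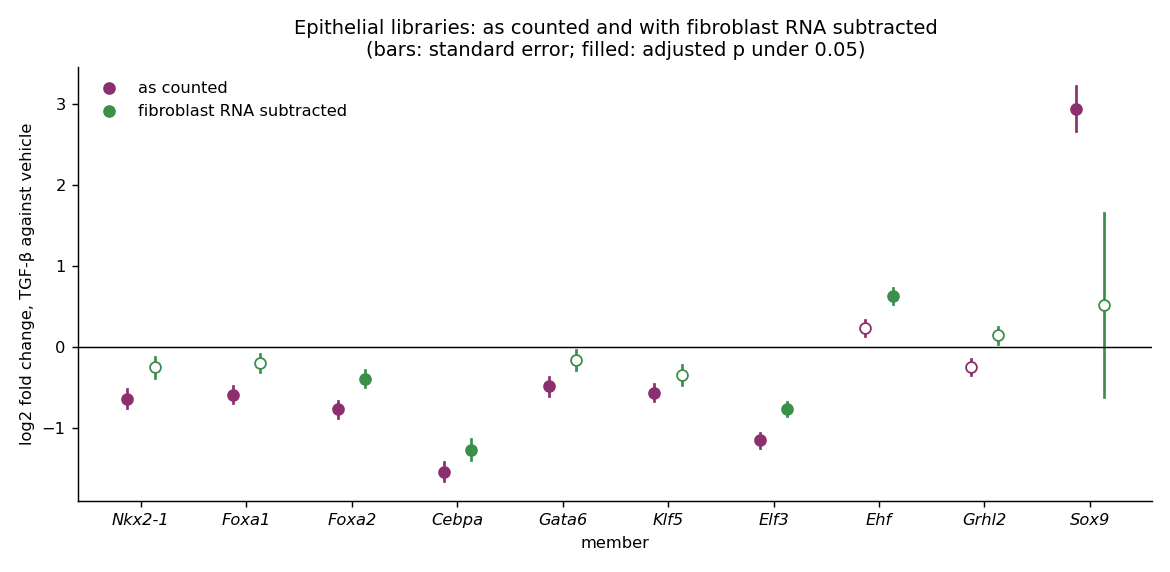
Log2 fold change of TGF-β against vehicle in epithelial libraries for each member, as counted and after subtraction of the estimated fibroblast RNA, with bars of 1 SE. Cebpa moves from −1.54 to −1.27, Elf3 from −1.15 to −0.77 and Sox9 from 2.94 to 0.52 with an SE of 1.13.

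Sox9 was the 1 member that rose with TGF-β. It stood at 7.13, 4.30, 2.56 and 2.04 CPM with vehicle and at 21.5, 22.4 and 29.0 CPM in the TGF-β libraries, a 7.66-fold higher level (log2 fold change 2.94, SE 0.28, edgeR adjusted p = 3.1e-08). The fibroblast RNA in these libraries would alone give 22.6 to 38.1 CPM, and measured over expected was 0.81 to 1.04. With vehicle this ratio was 0.52 to 1.17 and with EC 0.78 to 1.02. After subtraction the log2 fold change was 0.52, with an SE of 1.13 that leaves its size and sign undetermined (edgeR adjusted p = 0.79). Which cells the Sox9 reads came from was not tested.

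**Figure D4:**
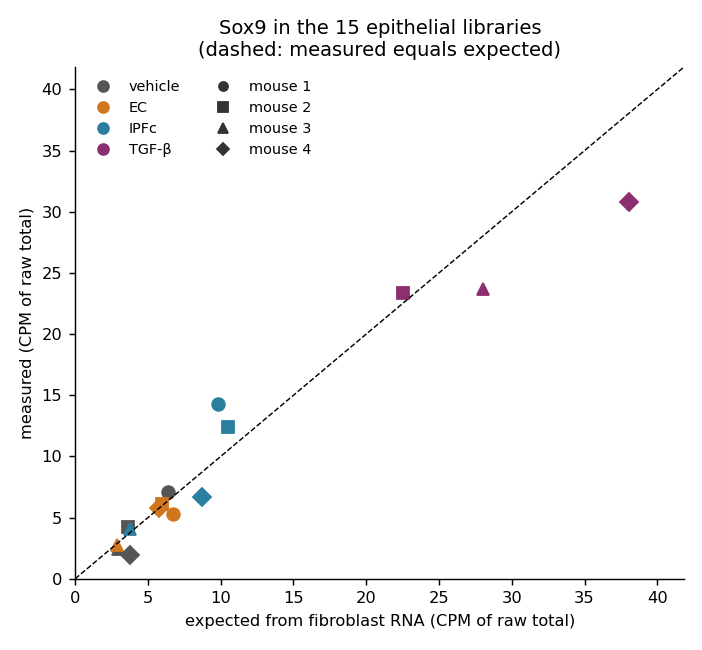
Epithelial Sox9 in CPM of the raw library total, measured (vertical axis) against the level expected from the fibroblast RNA in the same library (horizontal axis), with colours for the treatments and a dashed line of equality. The TGF-β libraries lie near the line at an expected 22.6 to 38.1 CPM, and the vehicle libraries at an expected 2.91 to 6.39 CPM.

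The cocktails were compared with each other and with TGF-β in the same fit, and these comparisons share libraries with those above. Between EC and IPFc, 1 of 10 members differed, where 4.17% of all genes were called. Elf3 stood at 128, 114, 107 and 140 CPM with EC and at 91.9, 83.0, 83.4 and 103 CPM with IPFc, higher with EC in 4 of 4 mice and without overlap (log2 fold change 0.45, SE 0.08, edgeR adjusted p = 1.1e-03). Ehf had a log2 fold change of 0.26 (adjusted p = 0.13) and Sox9 of −0.81 (adjusted p = 0.087).

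Against TGF-β, 8 members were higher with EC and Sox9 was lower, where 43.1% of all genes were called. Elf3 had the largest of the 8 differences (log2 fold change 1.44, SE 0.09, edgeR adjusted p = 1.3e-10), followed by Cebpa (1.24, SE 0.11, adjusted p = 2.5e-08). Ehf alone was not called (0.19, adjusted p = 0.13). After subtraction of the fibroblast RNA 4 were called higher (Elf3, Cebpa, Foxa2 and Klf5) and Sox9 lower, where 30.4% of all genes were called, while Nkx2-1 had 0.06 in place of 0.44, Gata6 0.06 in place of 0.37, Foxa1 0.17 in place of 0.51 and Grhl2 −0.042 in place of 0.30. Measured minus expected Sox9 was −1.49 to 0.108 CPM with EC and −7.25 to 0.811 CPM with TGF-β, so its call after subtraction rests on few counts. IPFc, which itself held TGF-β, had 6 members higher than with TGF-β alone and Sox9 lower, where 37.2% of all genes were called. Cebpa differed by a log2 fold change of 1.27 (edgeR adjusted p = 2.7e-08) and Elf3 by 0.99 (adjusted p = 3.5e-08), while Gata6 (0.29, adjusted p = 0.052), Grhl2 (0.22, adjusted p = 0.11) and Ehf (−0.07, adjusted p = 0.62) were not called. After subtraction Elf3, Cebpa, Foxa2 and Klf5 were called higher and Ehf lower (−0.37, edgeR adjusted p = 0.014), where 26.6% of all genes were called. The calls of Nkx2-1 (0.11 in place of 0.42) and Foxa1 (0.31 in place of 0.61) ended, and Sox9 turned from −1.71 to 2.14 (SE 1.07, adjusted p = 0.17).

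The members were also read in fibroblast libraries, each of which held some estimated epithelial RNA. In vehicle libraries, 10 of 10 members differed from the epithelial libraries, where 56% of all genes were called and 27.8% were called higher in epithelial libraries. Sox9 alone was lower in epithelial libraries, at 4.01 ± 2.29 CPM (SD, n = 4) against 67.7 ± 7.16 CPM (SD, n = 3), a 16.8-fold difference (log2 fold change −4.07, SE 0.35). The other 9 were higher in epithelial libraries by log2 fold changes of 1.39 (Gata6) to 2.94 (Foxa1). All 10 also differed with EC (49.1% of all genes called), IPFc (58.3%) and TGF-β (48.2%), each time with Sox9 alone lower in epithelial libraries.

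Set against the level that epithelial RNA alone would give, the members differed. Measured over expected in the 11 vehicle, EC and IPFc fibroblast libraries was 0.36 to 1.07 for Foxa1, 0.63 to 0.91 for Elf3, 0.46 to 1.14 for Ehf, 0.45 to 1.26 for Grhl2 and 0.95 to 1.34 for Foxa2. These 5 stood near or below what the epithelial RNA would bring. It was 1.36 to 2.15 for Cebpa, 1.07 to 3.36 for Klf5 and 1.04 to 3.57 for Gata6, at or above that level in every library, and 0.71 to 1.86 for Nkx2-1, on both sides of it. The expected level rests on general epithelial markers, with a summed 1826 to 3289 CPM in fibroblast and 11865 to 14089 CPM in epithelial vehicle libraries. AT2 markers stood at 5166 to 7546 and 12931 to 17128 CPM. Whether RNA of AT2 cells, which express Cebpa, was carried over at a higher share was not tested.

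**Figure D5:**
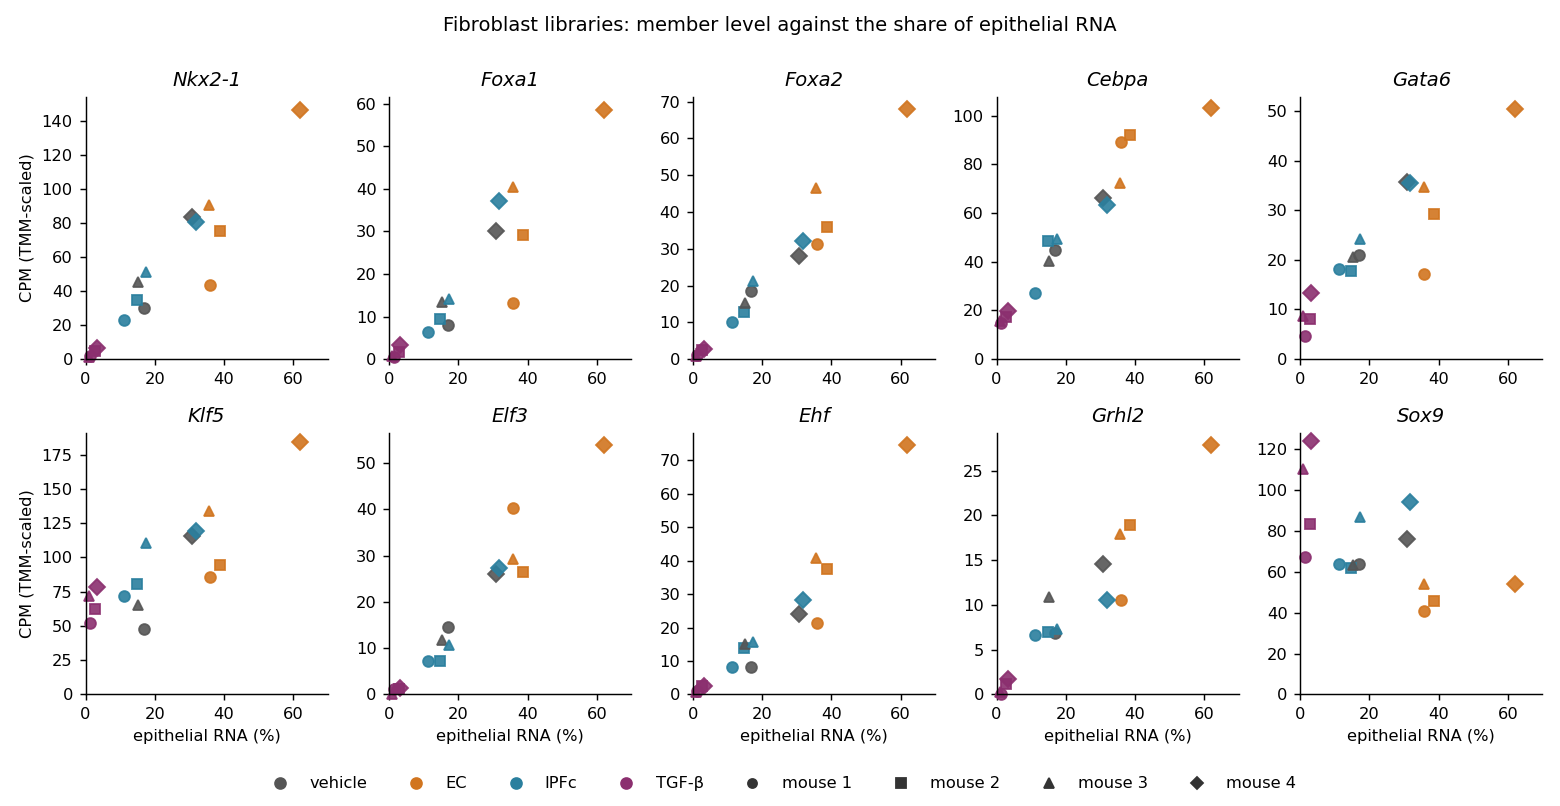
CPM of the members in the 15 fibroblast libraries (vertical axis) against the estimated share of epithelial RNA in percent (horizontal axis), with colours for the treatments. Nkx2-1 and Foxa1 lie near 0 in the TGF-β libraries, where the share is 0.894% to 3.22%, while Klf5 stays at 52.3 to 78.7 CPM there.

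With TGF-β the fibroblast libraries held little epithelial RNA, less than with vehicle in 3 of 3 mice, and little RNA of most members. There 9 of 10 members were called, 8 lower and Sox9 higher, where 19.2% of all genes were called and 12.8% were called lower. Nkx2-1 stood at 30.1, 45.3 and 83.7 CPM in the vehicle libraries of mice 1, 3 and 4 and at 1.56, 4.61, 1.43 and 6.41 CPM in the TGF-β libraries of mice 1 to 4 (log2 fold change −3.88, SE 0.26, edgeR adjusted p = 9.4e-09). Elf3 stood at 14.5, 11.8 and 26.1 CPM with vehicle and at 1.09, 1.14, 0.124 and 1.39 CPM with TGF-β (log2 fold change −4.03, SE 0.36, adjusted p = 2.3e-07). In both genes every TGF-β library lay far below the lowest vehicle library.

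Grhl2 had no reads in the TGF-β library of mouse 1, where a count of 0 allows up to 0.244 CPM (3 reads of 12312269, counting error only), and reached 1.75 CPM in that of mouse 4. Its log2 fold change was −3.71 (SE 0.38, edgeR adjusted p = 1.4e-06), and Foxa2, Foxa1 and Ehf had −3.45, −3.41 and −3.13 (adjusted p = 1.5e-07, 8.6e-08 and 3.9e-08). In the same libraries the 26 general epithelial markers fell from a summed 1826 to 3289 CPM with vehicle to 84.9 to 254 CPM with TGF-β, all 26 called lower. After subtraction of the epithelial RNA, 0 of the 9 members that could be fitted were called by edgeR, where 4.82% of all genes were called (Elf3 had too few counts left). The SEs grew and the values did not all shrink: Nkx2-1 had −4.09 (SE 1.16, adjusted p = 0.083), Grhl2 −5.34 (SE 2.78), Ehf −7.41 (adjusted p = 0.22) and Foxa2 −1.86 (SE 1.41). Foxa1 turned to 3.61, with no counts left in the vehicle libraries, where measured minus expected was negative. The subtracted values thus show neither that the differences were absent nor that they remained.

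Cebpa, Gata6, Klf5 and Sox9 stood in the fibroblast TGF-β libraries several times above the level expected from general epithelial markers, and Foxa2 somewhat above it. AT2 markers reached a summed 248 to 661 CPM there and 2901 to 5624 CPM in epithelial TGF-β libraries, and a separate share for AT2 RNA was not estimated. Cebpa stood at 45.0, 40.2 and 66.0 CPM with vehicle and at 14.8, 17.2, 15.5 and 19.8 CPM with TGF-β, where epithelial RNA would give 0.56 to 2.40 CPM. Klf5 stood at 47.6, 65.3 and 116 CPM with vehicle and at 52.3, 62.2, 71.9 and 78.7 CPM with TGF-β, and its log2 fold change was 0.01 (SE 0.15, 95% interval −0.30 to 0.32, edgeR adjusted p = 0.98). Measured over expected was 7.37 to 27.5 for Cebpa, 6.70 to 20.7 for Gata6, 12.9 to 53.3 for Klf5 and 124 to 514 for Sox9, against 1.39 to 1.59 for Foxa2, 0.94 to 1.49 for Nkx2-1 and 0.53 to 0.85 for Ehf. After subtraction the log2 fold change was −0.33 for Cebpa (SE 0.32), −1.07 for Gata6 (SE 0.60) and 1.13 for Klf5 (SE 0.53), none called.

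Sox9 rose in fibroblast libraries with TGF-β. It stood at 63.5, 63.5 and 75.9 CPM with vehicle and at 67.3, 83.2, 110 and 124 CPM with TGF-β, groups that overlapped (log2 fold change 0.60, SE 0.13, edgeR adjusted p = 3.3e-03), and the call held in 2 of the 4 fits that left out 1 mouse. After subtraction of the epithelial RNA it was 0.27 (SE 0.15, edgeR adjusted p = 0.45). With EC it stood at 41.0, 45.9, 54.2 and 53.8 CPM (log2 fold change −0.43, SE 0.13, edgeR adjusted p = 0.061).

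EC raised 6 of 10 members in fibroblast libraries, where 7.11% of all genes were called and 4.28% were called higher, and the share of epithelial RNA was higher in 3 of 3 mice (exact permutation test, two-sided, p = 0.25, the smallest that 3 pairs allow). Ehf stood at 8.19, 15.1 and 23.9 CPM with vehicle and at 21.4, 37.4, 40.9 and 74.5 CPM with EC (log2 fold change 1.45, SE 0.20, edgeR adjusted p = 4.9e-04). Elf3, Foxa2, Foxa1, Cebpa and Klf5 rose by log2 fold changes of 1.27, 1.17, 1.14, 0.82 and 0.80 (adjusted p = 0.011, 9.2e-03, 6.8e-03, 7.7e-03 and 3.8e-03), and the groups did not overlap for 4 of the 10 members, as they did not for 12.6% of all genes tested. General epithelial markers moved alongside, 18 of 26 called higher with a median log2 fold change of 0.99. Without mouse 3 only Ehf was called (edgeR adjusted p = 0.011), without mouse 4 only Klf5 and Ehf (0.019 and 0.047), and without mouse 1, whose EC library was the shallowest, all 9 members besides Sox9. No member was called without the mouse as a block by edgeR. None of the 9 that could be fitted was called after subtraction of the epithelial RNA, where 0.184% of all genes were called, with larger SEs: Cebpa had 1.28 (SE 0.33), Nkx2-1 1.28 (SE 1.02), Foxa2 1.95 (SE 1.40) and Klf5 0.21 (SE 0.50). The sign was not kept by all: Ehf turned to −7.80 and Grhl2 to −5.65, while Foxa1 had 8.15. Measured minus expected was negative, which left no counts, for Ehf and Grhl2 in all EC libraries and for Foxa1 in all vehicle libraries.

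With IPFc the share of epithelial RNA was higher than with vehicle in 2 of 3 mice (exact permutation test, two-sided, p = 1), and 0 of 10 members were called in fibroblast libraries by edgeR or DESeq2, where 0.449% of all genes were called. At an unadjusted p under 0.05, 1 member passed: Klf5 stood at 71.8, 80.5, 110 and 120 CPM with IPFc (log2 fold change 0.45, SE 0.15, edgeR adjusted p = 0.38).

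Whether a response differed between the fractions was tested directly, as the epithelial minus the fibroblast log2 fold change. With TGF-β it differed for 8 of 10 members, where 23.2% of all genes were called, and all 8 differences were positive. They were largest for Grhl2 (3.27, SE 0.44, edgeR adjusted p = 3.8e-06), Ehf (3.19, SE 0.36, adjusted p = 2.9e-07), Nkx2-1 (3.00, SE 0.45, adjusted p = 1.3e-05) and Elf3 (2.92, SE 0.44, adjusted p = 1.3e-05), and smallest for Gata6 (0.94, SE 0.25, adjusted p = 5.4e-03). For Cebpa the difference was −0.01 (SE 0.30, 95% interval −0.62 to 0.61), and for Klf5 −0.53 (SE 0.23, adjusted p = 0.10). After subtraction of the other fraction's RNA in both, Grhl2 alone was called (6.29, SE 1.68, edgeR adjusted p = 0.028), where 8.42% of all genes were called. Measured minus expected Grhl2 was −0.702 to −0.129 CPM in fibroblast TGF-β libraries, which left no counts there. In fibroblast vehicle libraries it was −3.51 to 2.38 CPM, so the call rests on few counts. The SEs grew here too. Ehf had 6.52 (SE 1.97, adjusted p = 0.051), Nkx2-1 3.19 (SE 1.46, adjusted p = 0.20), Foxa2 1.57 (SE 1.11), Gata6 0.66 (SE 0.58) and Sox9 0.12 (SE 1.32), while Foxa1 and Elf3 turned to −3.94 (SE 2.55) and −4.42 (SE 1.72). Foxa1 and Elf3 had no counts left in fibroblast vehicle libraries, where measured minus expected was negative.

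With EC, 0 of 10 members differed in response between the fractions, where 0.37% of all genes were called by edgeR, although 9 had an unadjusted p under 0.05 and DESeq2 called 3. With IPFc, 0 of 10 differed by edgeR or DESeq2, where 0.049% of all genes were called, and Sox9 alone had an unadjusted p under 0.05.

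Genes that the members are known to control moved in the same epithelial TGF-β libraries. Of 13 alveolar and club cell targets of Nkx2-1, Foxa1, Foxa2 and Cebpa, 11 fell and 1 rose, with a median log2 fold change of −1.44. Of all genes tested, 41.1% were called and 20.1% were called lower. They include Sftpa1, a surfactant protein, from 862 to 40.3 CPM (log2 fold change −4.43, SE 0.22, edgeR adjusted p = 5.2e-12), Sftpb (−2.37, adjusted p = 5.5e-12) and Sftpd (−2.19, adjusted p = 1.6e-11). After subtraction 7 of the 13 were called lower and 1 higher, where 26.6% of all genes were called. The same shares of all genes stand beside the other TGF-β lists below. Of the targets, 10 are also AT2 cell markers, and the 11 AT2 markers together fell from 12931 to 17128 CPM with vehicle to 2901 to 5624 CPM with TGF-β, so a smaller share of AT2 cells and a lower level per cell cannot be told apart.

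Of 20 barrier targets of Grhl2, Klf5, Elf3 and Ehf, 14 fell and 2 rose with TGF-β (median log2 fold change −0.69). Those with the smallest p were Prss8, a membrane protease (−1.47), Llgl2, a polarity protein (−1.37), and Esrp2, an epithelial splicing factor (−1.29), and 16 of the 20 are also among the general epithelial markers, whose median was −0.70. After subtraction 9 of the 20 were called lower and 4 higher.

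Other regulators were counted in the same way. Of 29 other lung epithelial transcription factors, 17 fell and 2 rose with TGF-β (median −0.56, beside −0.58 for the members). After subtraction 12 were called lower and 2 higher (median −0.46), beside 3 lower and 1 higher among the 10 members. Elf5, an Ets factor, fell from 17.1 to 3.53 CPM (log2 fold change −2.25, SE 0.20, edgeR adjusted p = 1.2e-08), and Irx3 fell from 111 to 53.1 CPM (−0.99, SE 0.11, adjusted p = 2.9e-07). Mycn, a growth regulator of lung tips, rose from 0.0886 to 4.69 CPM (5.72, SE 0.54, adjusted p = 3.5e-08).

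All 6 repressors of epithelial genes rose (median 2.20; Zeb1 3.20, Zeb2 3.03, Snai1 2.25), as did 8 of 10 mesenchymal transcription factors (median 2.32; Foxf2 3.49, Tbx3 2.35, Prrx1 2.29). The fibroblast markers rose alongside, 20 of 21 tested with a median of 3.19, and after subtraction 1 of the 6 repressors and 1 of 7 mesenchymal factors were called higher. Of 8 cartilage genes tested that Sox9 controls or works with, 3 rose and 1 fell (Col11a1 4.79, Col11a2 2.04, Sox6 −1.60). After subtraction 1 was called higher and 1 lower.

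With EC, 7 of the 13 alveolar and club cell targets fell in epithelial libraries (median −0.48; Lpcat1 −0.63, Scgb1a1 −0.53, Sftpb −0.48), while Nkx2-1, Foxa1, Foxa2 and Cebpa themselves were not called. Of all genes tested, 4.41% were called with EC. After subtraction 2 were called, with the median at −0.48, where 1.9% of all genes were called. Of the 20 barrier targets 1 rose and 3 fell (Tjp3 0.77, Tmprss2 −0.57, Dsp −0.51), and of the 29 other transcription factors 2 rose and 3 fell. Cebpd, a relative of Cebpa known for its response to inflammatory cytokines, rose from 10.1 to 32.1 CPM (log2 fold change 1.64, SE 0.18, edgeR adjusted p = 3.7e-06), whereas Hopx (−0.63) and Etv5 (−0.45) fell. With IPFc, 3 of the 13 targets and 0 of the 20 barrier genes were called by edgeR, all 3 lower, where 4.1% of all genes were called. Among the other factors, Foxj1, the driver of ciliated cells, fell (−0.91, adjusted p = 1.1e-03), as did Hopx (−0.56, adjusted p = 0.024).

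Across the 15 epithelial libraries, with the mean of each mouse removed, the members that fell with TGF-β moved together, most closely Foxa2 with Cebpa (Pearson r = 0.96 on log2 CPM) and with Klf5 (r = 0.95). Sox9 ran against them, with r from −0.77 (Klf5) to −0.88 (Cebpa). Ehf followed none of the others closely, with r between −0.28 (Nkx2-1) and 0.20 (Elf3). The libraries share mice and the TGF-β group stands apart, so these values describe the pattern and were not tested.

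Among 10571 genes with a mean of at least 5 CPM, the genes most like Sox9 were Parvb, Glipr2 and Zeb1 (r = 0.98 each), and those most like Elf3 were Klk13, Arg2 and Gsdmd (r = 0.99 each). Nkx2-1 was most like Actb, Cavin1 and Tspan5 (r = 0.96 each), Foxa2 most like Rabggta, Ppp5c and Tmem88 (r = 0.99 each) and Klf5 most like Klf16 (r = 0.99), Surf6 and Larp1 (r = 0.98 each).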

How the data were processed

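Bulk RNA was sequenced from 30 libraries of re-sorted organoids. Reads were trimmed by the authors (Trimmomatic 0.30), who deposited raw read counts per gene, without normalization; the aligner and counter are not given in the sources used here, nor whether counting used strand, and the build is GRCm39 per the labels and GRCm38.p6 per the methods. The study's own tests used DESeq2 1.34.0. No library repeated another of its group (chi-square per degree of freedom of 5.76 to 83.2 over 42 pairs).

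From the deposited counts, edgeR 4.0.16 in R 4.3.3 was run with TMM normalization and the quasi-likelihood test (two-sided), on all 15 libraries of a fraction, or on all 30 for comparisons between fractions, with the mouse as a block. Genes with a mean count of at least 1 were tested (18024 epithelial, 18048 fibroblast, 18364 in all), and a Benjamini-Hochberg adjusted p under 0.05 over all of them was a call. Cultures of one number came from one mouse per the labels, and deviations from group means correlated by 0.26 within a mouse and −0.085 between mice in epithelial libraries (0.28 and −0.092 in fibroblast libraries).

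The share of the other fraction's RNA in a library was the median, over markers of that fraction with at least 50 CPM in the partner library of the same culture, of its CPM divided by the partner's; an absent partner was replaced by the mean of its group. The expected level of a member was this share multiplied by the partner's CPM, and subtraction removed it from the library. Negative remainders were counted as no reads. Some sample titles end in R, whose meaning is not given, and this was tried as a term. Members, gene lists, motifs and tests were chosen with earlier results of these data known. All members were named, with the 3 genes of each list with the smallest adjusted p and the 3 most correlated genes of Nkx2-1, Foxa2, Klf5, Sox9 and members called in 2 or more epithelial comparisons. The 14 alternative fits were another normalization, DESeq2 1.42.0, other filters, no block, the culture as block, fewer groups, robust estimation, the suffix, subtraction and each mouse left out; levels on raw totals and shares with a lower marker limit were also computed. The tests were tested on simulated data.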

Additional observations from a re-analysis of the deposited data

Results flagged for a closer look

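The response to TGF-β differed between the fractions for 8 members, by the test of the difference itself (epithelial minus fibroblast log2 fold change, edgeR). The difference was 3.00 for Nkx2-1, 2.62 for Foxa1, 2.64 for Foxa2, 2.09 for Sox9, 2.92 for Elf3, 3.27 for Grhl2, 0.94 for Gata6 and 3.19 for Ehf. The share of epithelial RNA in fibroblast libraries was 20.9% with vehicle and 2.03% with TGF-β, and after subtraction 1 of the 8, Grhl2, was called (6.29, SE 1.68). That call rests on few counts, as Grhl2 had none left in fibroblast TGF-β libraries. Ehf then had 6.52 (SE 1.97) and Nkx2-1 3.19 (SE 1.46), as large as before with wider errors. Foxa2 had 1.57, Gata6 0.66 and Sox9 0.12, smaller than before, and Foxa1 and Elf3 turned to −3.94 and −4.42. Foxa1 and Elf3 had no counts left in fibroblast vehicle libraries.

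Grhl2 in the fibroblast IPFc library of mouse 4 stood at 10.5 CPM, apart from the other 3 libraries of its group, whose highest was 7.28 CPM. It was the 1 value of 60 groups of 4 examined that stood so far from its group, and chance gives about 1 in 20.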

How the results depend on the processing

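Over 14 alternative fits, 2012 of 2147 member values kept their side of the threshold, 62 of them uncalled values whose sign changed; 74 lost and 55 gained a call, and 6 called values changed sign. Those 6 arose with the other fraction subtracted: Grhl2 in epithelial EC against TGF-β (−0.042), Sox9 in epithelial IPFc against TGF-β (2.14), Ehf in fibroblast EC (−7.80), Foxa1 in fibroblast TGF-β (3.61), and Elf3 (−4.42) and Foxa1 (−3.94) in the fraction difference with TGF-β. Measured minus expected was negative, which left no counts, for Ehf in all fibroblast EC libraries (−24.7 to −6.36 CPM). The same held in all fibroblast vehicle libraries for Foxa1 (−8.05 to −3.66 CPM) and Elf3 (−5.96 to −1.23 CPM). The values of these 3 genes thus rest on groups without counts. For Grhl2 and Sox9 the cause was not tested. Subtraction left 4 members called in epithelial TGF-β, 0 in epithelial IPFc and 2 in epithelial EC against IPFc (2.32% of all genes called in the last). It left 5 in epithelial EC against TGF-β, 0 in fibroblast EC, 0 in fibroblast TGF-β and 1 in the fraction difference with TGF-β. Elf3 had too few counts left in fibroblast libraries to be fitted.

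Without the mouse as a replicate block, 0 members were called in epithelial EC, 0 in epithelial IPFc and 0 in fibroblast EC; counts of calls in the other comparisons stayed within 1.5 times. With the culture as a replicate block, 69 of 70 values between fractions kept their call. With only the groups compared, 1 was called in epithelial EC, 2 in epithelial IPFc and 2 in epithelial EC against IPFc. In the last, DESeq2 and the fit with no filter each called 2. In the fraction difference with EC, DESeq2 called 3, filterByExpr 1, no filter 5 and the title suffix as a term 5, which left 2 called in fibroblast EC. Leaving out 1 mouse, members called ranged from 0 to 1 in epithelial EC, 1 to 3 in epithelial EC against IPFc, 1 to 9 in fibroblast EC and 0 to 1 in the fraction difference with EC. The counts in this paragraph stand without the share of all genes called in the same fit. They describe the fits and are no result about the members. The marker limit of 20 CPM moved no share beyond its spread.

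The limits are those of 3 or 4 mice a group, of an estimated share of fibroblast RNA that moved with treatment, and of low counts: in fibroblast TGF-β libraries Elf3 had 2 to 23 reads and Foxa1 6 to 53.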

Other observations

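Markers of the mature cell types among which the members act moved in different directions in epithelial libraries. With TGF-β all 6 basal cell markers fell (median log2 fold change −3.37; Krt5 and Krt15 had the smallest p), although the summed basal markers spanned 27.0 to 1193 CPM over the vehicle libraries and 6.36 to 93.9 CPM over the TGF-β libraries of mice 2 to 4, groups that overlapped. Besides these, 5 of 7 airway secretory markers fell (median −2.18; Bpifa1 from 366 to 38.8 CPM, Cyp2f2 from 320 to 67.7 CPM). Of 12 ciliated markers 4 rose (median 0.41), where 41.1% of all genes tested were called in either direction. Their sum did not rise, at 50.3 to 79.6 CPM with vehicle and 45.1 to 69.6 CPM with TGF-β, groups that overlapped. Of 11 markers of alveolar type 1 cells, the flat cells of gas exchange, 3 rose and 5 fell, among them Aqp5 (log2 fold change −1.83, SE 0.10, edgeR adjusted p = 1.7e-11) and Cav1 (1.43, SE 0.12, adjusted p = 5.8e-09), which fibroblasts also express.

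Secretory genes moved with both cocktails. Bpifa1, a secreted airway defence protein, fell with EC (log2 fold change −1.04, SE 0.11, edgeR adjusted p = 2.4e-06) and rose with IPFc (1.18, SE 0.11, adjusted p = 4.8e-07), where the mucin Muc5b also rose from 82.3 to 247 CPM (1.58, SE 0.20, adjusted p = 3.2e-05). Both cocktails lowered type 1 markers, 6 of 11 with EC and 5 of 11 with IPFc, with none called higher by edgeR in either (Ager −1.06 with EC and −0.82 with IPFc). Of all genes tested, 4.41% were called with EC and 4.1% with IPFc.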
